A study of Mus musculus with 46 samples.

Results

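Osteocalcin-high and osteocalcin-low osteoblasts of the mouse cochlea were compared across all genes. Of 46 single cells, 12 had Ibsp at 1000 CPM (reads scaled to a common total per cell) or more and were taken as osteoblasts, the bone-forming cells. Of these 12, the 6 with Bglap2 at 5000 CPM or more are called osteocalcin-high (cells 2, 3, 4, 5, 6 and 9) and the 6 with Bglap2 under 2500 CPM osteocalcin-low (cells 1, 7, 8, 10, 11 and 12). Bglap2 is 1 of 3 near-identical osteocalcin genes, and Ibsp encodes bone sialoprotein, a matrix protein of mineralized tissue.

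Each sample of the series is 1 fluorescent cell, picked by hand with a pipette after papain dissociation of the cochlea at postnatal day 10. All cells have the same labels: strain C57BL/6 and genotype Dio2creERt2:Ai6, from animals heterozygous for the Dio2 Cre allele. Cre is made where Dio2 is active, and the Ai6 reporter then stays lit in that cell and its descendants, so a picked cell need not hold Dio2 RNA at the time of picking. There is no group of another genotype, age or treatment, and no source used here gives the dose or day of the inducer. The labels name no animal, so the 12 cells are 1 sample, no test between the classes was made, and every difference below is a description of these cells.

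Osteoblasts lay down a collagen matrix and then mineralize it. Early cells of the lineage make transcription factors such as Runx2 and Sp7 and the phosphatase Alpl, while osteocalcin, a calcium-binding protein of the matrix, is made late, by mature cells. Dio2 encodes the type 2 deiodinase, which converts thyroxine inside the cell into the active thyroid hormone T3, and thyroid hormone is needed both for the development of hearing and for bone formation. Coch encodes cochlin, an abundant matrix protein of the fibrocytes, the connective tissue cells of the cochlear lateral wall and spiral limbus.

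The promoters of Bglap and Dio2 are shown because these genes stand at the centre of the comparison: osteocalcin separated the classes and Dio2 was the thyroid gene that differed most between them. Each sequence is the 250 bases before the gene's start in RefSeq (build GRCm38.p6), read 5′ to 3′ on the minus strand, from chr3:88384467-88384716 for Bglap and chr12:90739039-90739288 for Dio2. Capitals mark motifs that were found by a search of both strands.

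Bglap: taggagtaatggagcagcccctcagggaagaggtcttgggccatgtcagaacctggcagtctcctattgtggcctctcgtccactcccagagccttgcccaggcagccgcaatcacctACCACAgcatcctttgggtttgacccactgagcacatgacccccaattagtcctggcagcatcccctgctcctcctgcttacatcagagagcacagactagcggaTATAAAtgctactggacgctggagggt

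Dio2: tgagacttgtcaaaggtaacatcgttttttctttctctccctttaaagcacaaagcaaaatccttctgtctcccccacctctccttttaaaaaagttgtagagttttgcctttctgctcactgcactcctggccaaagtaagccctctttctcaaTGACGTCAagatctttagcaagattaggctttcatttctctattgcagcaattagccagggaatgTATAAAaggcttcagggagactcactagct

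In the Bglap promoter the capitals are ACCACA, the core of the motif bound by Runx factors, and TATAAA, the TATA box. In the Dio2 promoter they are TGACGTCA, the element bound by cAMP-responsive factors, and again TATAAA near the start. ACCACA was in 14.05% of all 32851 promoters of this length and in 9.93% of the 7463 of measured genes, from which the higher and lower genes come. It was in 9.51% of those of genes higher in the osteocalcin-high cells and in 6.94% of those of genes lower there. TGACGTCA was in 1.55% of all promoters, 2.71% of those of measured genes, 2.20% of those of the higher genes and 4.07% of those of the lower genes, and TATAAA in 12.4%, 6.19%, 5.57% and 6.46%. A match describes the letters of this window only. Also searched, with no match in either window, were the longer Runx motif AACCACA, which contains the shorter one, the motif TTGCATCA of ATF4 and C/EBP factors, the homeobox motif TAATTA, the AP-1 motif TGACTCA and the E-box CACCTG. Their shares among the promoters of higher and lower genes were 2.09% and 1.91%, 0.232% and 0.239%, 2.44% and 2.87%, 2.44% and 2.15%, and 14.5% and 14.4%, in that order. The shares were 2.84%, 0.523%, 2.36%, 2.69% and 13.8% of the promoters of measured genes and 4.40%, 0.791%, 4.84%, 4.46% and 17.2% of all promoters.

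The values that chose the cells left wide gaps. The lowest Ibsp value inside the set was 7618 CPM (cell 5), and the highest outside it was 107 CPM. Between the classes, the lowest Bglap2 value of the osteocalcin-high cells was 8880 CPM (cell 9) and the highest of the osteocalcin-low cells was 1610 CPM (cell 11). Together the osteocalcin genes took 1.75% to 3.81% of the reads in the high cells and 0.0596% to 0.339% in the low cells, against 0.0128% or less in the other 34 cells. Ranking the cells by the sum of the osteocalcin genes gave the same classes, and Bglap2 made up 37.8% to 55.9% of that sum in the 12 cells, a split that is uncertain between near-identical genes.

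**Figure D1:**
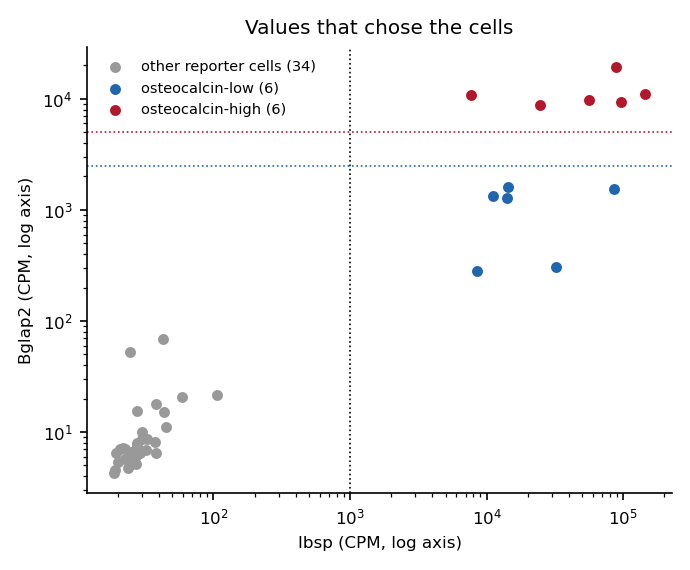
Ibsp (horizontal) and Bglap2 (vertical) in CPM on log axes, 1 point per cell for all 46 cells, with dotted lines at the cut values of 1000, 2500 and 5000 CPM. The 12 osteoblasts lie far from the 34 other cells, and the 6 high and 6 low cells are divided by an empty band between 1610 and 8880 CPM of Bglap2.

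The osteoblast label held for most markers in most cells, but less well for the main bone collagen and least well in cell 1. At a level of 100 CPM, Alpl and Dlx5, a homeobox factor of the lineage, were present in 12 of 12 cells, Sp7 in 11 and Runx2 in 10, against 4, 0, 4 and 3 of the 34 other cells. Ifitm5, a membrane protein of mineralizing osteoblasts, was present at that level in 9 of 12 cells and in 0 of 34. Cell 1 was under that level for Sp7 (0.594 CPM), Runx2 (0 CPM) and Ifitm5 (86.0 CPM). So were cell 2 for Runx2 (0.195 CPM) and cells 10 and 11 for Ifitm5 (0.734 and 56.2 CPM). Col1a1, the main collagen chain of bone, reached it in 8 of 12 cells. The 4 exceptions were cell 1 (3.76 CPM), cell 10 (87.6 CPM) and cell 12 (7.99 CPM) of the low class and cell 3 (5.58 CPM) of the high class. Because these cells stand apart, differences past the size rule below that change call or direction or move by over 1.5 times without them, and some others, are also given for the 5 high and 3 low cells that remain.

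Depth and quality overlapped between the classes, but the high cells held more genes. Reads in listed genes ran from 2522853 to 5438602 in the high cells (median 4642089) and from 2773564 to 4635953 in the low cells (median 3914109). The number of genes at 10 CPM or more was 3611 to 5628 in the high cells (median 5048.5) and 3518 to 4906 in the low cells (median 4053.5). Mitochondrial reads were 0.615% to 2.53% and 0.456% to 1.51%. Over the 12 cells, Spearman's rho of Bglap2 was 0.38 with reads and 0.36 with the number of genes, given as a description of 12 cells of 1 sample. The part of these quantities in the counts of higher genes was not tested.

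A gene was counted as measured when it had 10 CPM or more in at least 3 of the 12 cells, which left 7440 genes besides Ibsp and the 3 osteocalcin genes. A gene was counted as higher or lower when the class means of log2(CPM + 1) differed by at least 2 and at least 4 of the 6 cells of the higher class had 10 CPM or more. By this size rule 863 genes (11.6%) were higher and 394 (5.3%) lower in the osteocalcin-high cells, 1257 (16.9%) in all. The median difference over all 7440 genes was 0.35, and with differences centred on it the counts were 672 and 517, so that 56.5% rather than 68.7% of the counted genes were higher. Without the cells of low Col1a1, 927 of 6139 genes (15.1%) were higher and 725 (11.8%) lower, and counts given below for the remaining cells stand beside these shares. Where classes had other sizes, the number of cells asked for was scaled to the class and rounded up. Fewer low cells were thus asked for without the cells of low Col1a1. Cells of the same class were not much more alike than cells of different classes: the median Spearman's rho between cells over genes was 0.32 within the high class, 0.27 within the low class and 0.29 between them. The median SD over cells of a class was 2.79 (high) and 3.02 (low) on the log2 scale, above the size that the rule asks for, and values of both classes overlapped for all but 12 genes (0.161%). These counts describe the 12 cells only, since the classes were made from values of the same cells. All differences below are osteocalcin-high minus osteocalcin-low on the log2(CPM + 1) scale.

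Dio2 (chr12:90724552-90739038, GRCm38.p6, minus strand) was lower in the osteocalcin-high cells. Its values in the high cells were 0.195, 81.6, 0.404, 0.694, 0.342 and 166 CPM (cells 2, 3, 4, 5, 6 and 9), which were 1, 409, 2, 2, 2 and 853 reads. In the low cells they were 545, 27.6, 186, 49.4, 160 and 157 CPM (cells 1, 7, 8, 10, 11 and 12), or 2749, 119, 577, 202, 691 and 786 reads. All 6 low cells but only cells 3 and 9 of the high class were above 10 CPM, where 15 of the 34 other cells were. In the other 4 high cells Dio2 was at or below 2 reads, under the 0.513 to 1.04 CPM that 3 reads are worth in these cells. The difference of means was -4.35, from 2.61 ± 3.32 to 6.96 ± 1.51 (mean ± SD over 6 cells), and the classes overlapped because of cells 3 and 9. Without the 4 cells of low Col1a1 it was -4.71.

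The thyroid hormone receptor beta gene, Thrb, differed in the same direction but through fewer cells. It was 0.347 to 4.68 CPM in the high cells (median 1.87). Among the low cells it was 611, 124, 279 and 312 CPM in cells 1, 8, 10 and 12, and 0.465 and 0.694 CPM in cells 7 and 11. Its difference was -4.26, and without the cells of low Col1a1, which take away 3 of the 4 cells with Thrb, it was -1.28. Thra, the gene of the other receptor, was 0.199 to 94.4 CPM (median 6.23) in the high and 0 to 104 CPM (median 36.9) in the low cells, a difference of -1.17 that did not reach the rule and ran from -2.01 to -0.61 with 1 cell left out.

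Of the 8 measured genes among 12 thyroid hormone receptors and cofactors, 1 was higher and 2 were lower, with a median difference of -1.48 against 0.35 over all genes. Rxrb, which encodes a partner that receptors bind DNA with, was 0.39, 51.1, 0.202, 0, 0 and 158 CPM in the high cells and 0, 0, 56.8, 326, 491 and 191 CPM in the low cells, a difference of -2.83 with broad overlap. The higher member was Hdac3, a histone deacetylase of the corepressor complex, at 68.6 to 160 CPM (median 109) in all 6 high cells and 0.198 to 168 CPM (median 26.1) in the low cells, a difference of 2.99. The partner gene Rxra (-1.80) and the corepressor gene Ncor1 (-1.97) did not reach the rule. Single cells moved both across a difference of 2: Rxra ran from -2.50 to -0.72 and Ncor1 from -2.38 to -0.89 with 1 cell left out, and Ncor1 was -0.48 without the cells of low Col1a1.

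Thyroid hormone supply and response gave little more. Of 11 genes of hormone handling only 3 were measured. Slco1c1, a thyroxine transporter, was at 863 and 1510 CPM in cells 1 and 12 of the low class and at 539 CPM in cell 9 of the high class, and at 1.63 to 7.86 CPM in the other 9 cells. The difference of -1.56 was under the rule. It ran from -2.72 to -0.42 with 1 cell left out and was 1.09 without the cells of low Col1a1, which include cells 1 and 12. Dio1 and Dio3, the genes of the other deiodinases, were at 0 in all 12 cells, and the amino acid transporter Slc7a5 was found in cells 5 (71.5 CPM) and 9 (24.1 CPM) only. Among 4 measured genes that thyroid hormone is known to regulate in other tissues, 1 was higher. Dbp, a clock output factor, was 0 to 155 CPM (median 61.5) in the high and 0 to 275 CPM (median 0.398) in the low cells, a difference of 2.51 that was 1.98 without cell 7. Klf9, a direct target of the receptors, differed by -0.34, with 5 of 6 cells of each class above 10 CPM. Its direction rested on single cells, as it was 0.68, 0.27 and 0.04 without cells 5, 8 and 12, -1.47 without cell 11 and 0.27 without the cells of low Col1a1. Of the genes that act on turnover of the deiodinase protein, Wsb1 differed by -1.48 and Ube2j1 by 1.71, both under the rule. Wsb1 was beyond 2 in size, at -2.18 to -2.46, without any 1 of cells 1, 2, 6 and 11, -0.71 without cell 10 and -0.72 without the cells of low Col1a1. Ube2j1 was 2.30 to 2.79 without any 1 of cells 2, 3, 7 and 12 and 1.14 without cell 5.

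In the 6 high and 6 low cells, Coch did not differ beyond the spread within the classes. It was 544, 30509, 8962, 510, 2886 and 13378 CPM in the high cells and 34506, 1819, 20798, 4662, 702 and 32569 CPM in the low cells, so all 12 cells held it and the ranges almost coincided. The difference was -0.93, between means of 11.89 ± 2.46 and 12.81 ± 2.36, and it ran from -1.60 to -0.35 when 1 cell was left out and was -0.26 without the cells of low Col1a1. With Ibsp at 100 CPM or more (6 high and 7 low cells) it was 0.17. Some other cochlear fibrocyte markers were low in both classes: Otos was at most 108 CPM, Otor 103 CPM, Gjb2 46.8 CPM and Gjb6 4.51 CPM in any of the 12 cells.

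Dio2 varied with Coch about as closely as, in the opposite direction, with osteocalcin and other bone genes. Over the 12 cells Spearman's rho was 0.66 between Dio2 and Coch, -0.62 between Dio2 and Bglap2 and -0.45 between Coch and Bglap2. Dio2 had a rho of -0.60 with Col1a1 and of -0.59 with Ibsp, which chose the cells. Coch was lower where Col1a1 was higher (rho -0.73), and the 3 cells with the highest Coch, cells 1, 12 and 3, had the lowest Col1a1. These values share 12 cells and their libraries, and are a description. Those with Bglap2 partly restate the class differences, because Bglap2 set the classes.

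**Figure D2:**
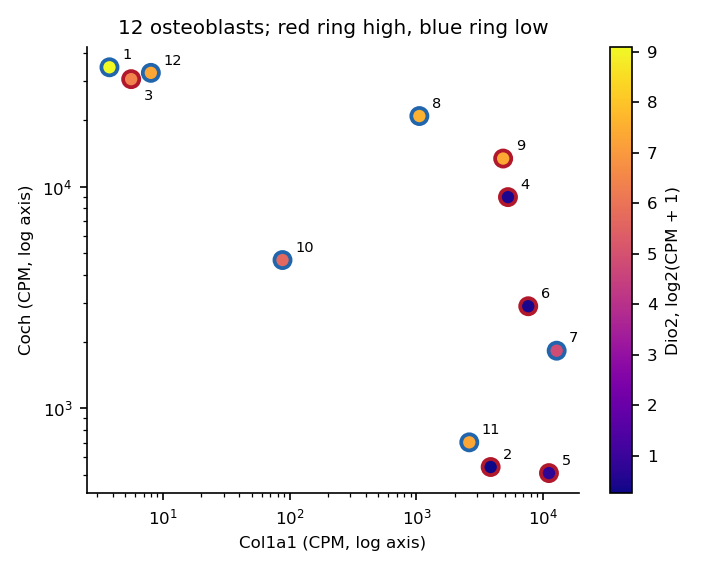
Coch against Col1a1 in the 12 osteoblasts, in CPM on log axes, with the fill showing Dio2 as log2(CPM + 1) and the ring the class. Cells 1, 3 and 12 combine Col1a1 of 3.76 to 7.99 CPM with Coch of 30509 to 34506 CPM, and both classes are found at each end of the Coch range.

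Of 7 measured genes in the list of cochlear fibrocyte genes, Car3 alone passed the rule. Car3 encodes a cytosolic carbonic anhydrase. It was 17764, 938, 19274, 6693, 11297 and 4593 CPM in the high cells and 936, 2114, 84.5, 195, 606 and 103 CPM in the low cells. The class medians were 8995 and 400 CPM, a 22.5-fold difference, and the mean difference on the log2 scale was 4.28. Only cell 3 of the high class (938 CPM) fell within the range of the low class, below cell 7 and beside cell 1. Its rho with Bglap2 over the 12 cells was 0.89, which partly restates the class difference because Bglap2 set the classes. The difference of Car3 was 3.86 to 4.85 with any 1 cell left out and 4.43 without the cells of low Col1a1.

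**Figure D3:**
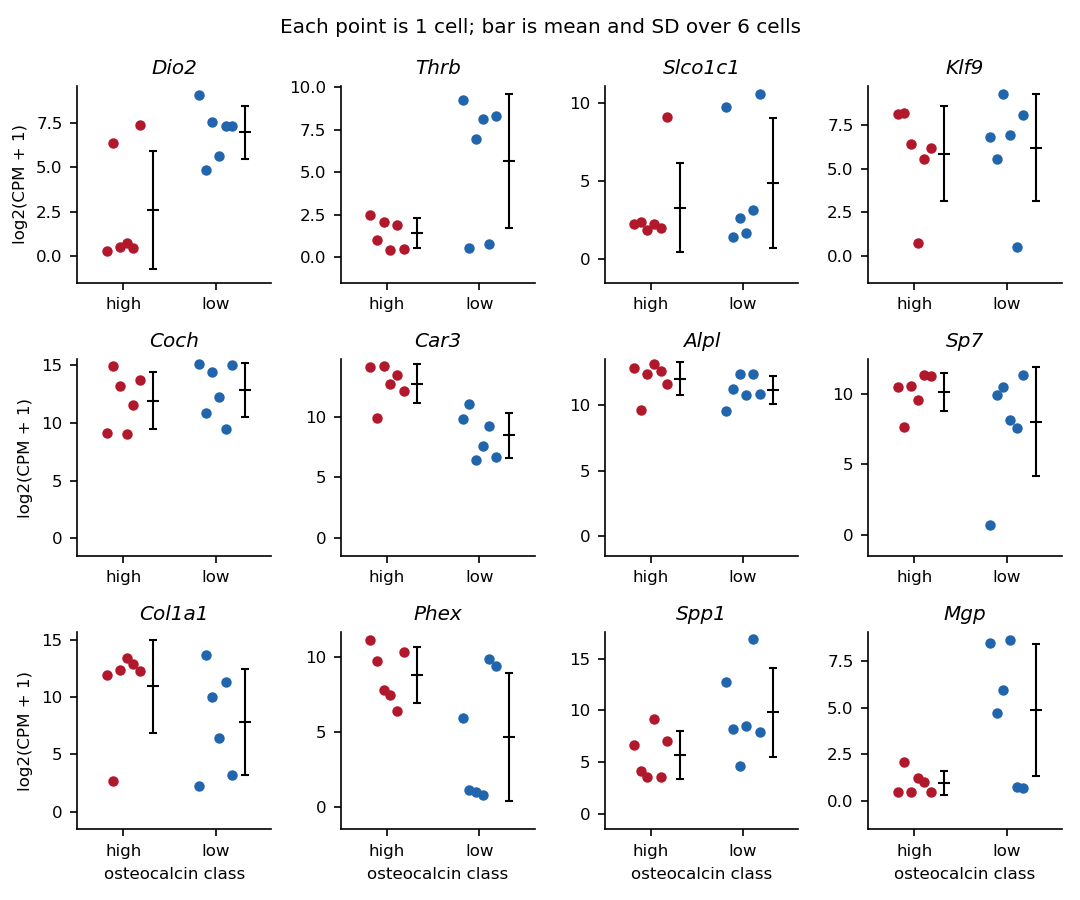
Values of 12 genes in the osteocalcin-high (red) and osteocalcin-low (blue) cells as log2(CPM + 1), 1 point per cell, with the mean and SD over 6 cells. Dio2, Thrb, Spp1 and Mgp sit lower in the high cells, Car3 and Phex higher, and Coch and Klf9 overlap over nearly their whole range. For Alpl, cells 3 and 9 of the high class lie within the low range and the other high cells above it.

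Among 10 genes of osteoblast identity, 5 were higher in the osteocalcin-high cells and 0 lower, against 11.6% and 5.3% of all genes. The median difference was 1.76. With log2(CPM + 10) 2 were higher, and with a difference of medians 1 was, where 218 and 1273 of all 7440 genes were. Several of the 5 rested on single cells. Panx3, a channel protein of differentiating osteoblasts, was 810 to 2586 CPM (median 1283) in the high cells and 0.599 to 1697 CPM (median 736) in the low cells. Its difference of 2.86 came from cells 11 (19.9 CPM) and 12 (0.599 CPM), and was 1.50 without cell 12. Sp7 was 201 to 2594 CPM (median 1475) and 0.594 to 2573 CPM (median 634), a difference of 2.12 that was 0.64, 1.88 and 1.90 without cells 1, 6 and 9 and 1.31 without the 4 cells of low Col1a1. Ifitm5 differed by 2.15, but by 1.97, 0.84 and 1.85 without cells 1, 10 and 11 and by 0.08 without the cells of low Col1a1.

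Alpl was present in every cell, and its difference of 0.84 did not reach the rule. It was 794 to 9149 CPM (median 5924) in the high cells and 770 to 5476 CPM (median 2154) in the low cells. Cells 2, 4, 5 and 6 of the high class lay above every low cell, and cells 3 and 9 lay within the low range. Its rho with Bglap2, which set the classes, was 0.62. The difference ran from 0.48 to 2.05 under other settings. Runx2 differed by -0.76, but by 0.58 without cell 2, -2.29 without cell 1 and -2.64 without the cells of low Col1a1. Dlx5 differed by -0.41 and ran from -0.70 to -0.12 with 1 cell left out. Tmem119, a membrane protein that promotes osteoblast differentiation, differed by 1.41, but by -0.20 without cell 11, 2.01 and 2.06 without cells 7 and 8 and 2.34 without the cells of low Col1a1. Without the cells of low Col1a1, 3 members of this list were higher and 1 lower.

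Collagens and the enzymes that process them held 9 higher and 0 lower genes among 25 measured, with a median difference of 1.16, and 10 higher and 0 lower of 23 without the cells of low Col1a1, where 15.1% of all genes were higher. Col22a1, a collagen of tissue junctions, was 193 to 859 CPM (median 426) in all 6 high cells. In the low cells it was 391 CPM in cell 7, 12.5 CPM in cell 11 and at most 0.245 CPM in the other 4, and it was below 10 CPM in all 34 other cells of the series. Its difference was 6.59, or 4.73 without the cells of low Col1a1. Plod2, a lysyl hydroxylase for collagen crosslinks, was 28.4 to 1491 CPM (median 345) in the high cells. In the low cells it was 68.7, 613 and 205 CPM in cells 10, 11 and 12 and at most 1.29 CPM in the other 3, a difference of 3.92. Fkbp10, a collagen chaperone of the endoplasmic reticulum, was 495 to 1442 CPM (median 802) in the high and 0.792 to 1048 CPM (median 250.5) in the low cells, a difference of 3.40.

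Col11a1, a fibril collagen, was 409 to 3631 CPM (median 1652) in the high and 6.85 to 911 CPM (median 504) in the low cells, with a difference of 3.16. The classes overlapped, as cells 3 (491 CPM) and 9 (409 CPM) of the high class lay below the 3 highest low cells. Col13a1, a transmembrane collagen, differed by 3.91, through 5 of 6 high cells against cell 11 alone of the low class, and P4ha2, a prolyl hydroxylase, by 3.30. Col1a1 itself was 5.58 to 11128 CPM (median 5060) in the high and 3.76 to 12801 CPM (median 571) in the low cells. Its difference of 3.11 was 1.99 without cell 1, 4.75 without cell 3 and 0.89 without the 4 cells defined by it.

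Bone matrix and mineralization genes went both ways, 3 higher and 2 lower of 15 measured, with a median difference of 0.95. Phex, an endopeptidase of phosphate balance that is made by mature osteoblasts and osteocytes, was 2186, 840, 224, 173, 80.9 and 1265 CPM in the high cells. In the low cells it was 58.8, 1.16, 0.967, 0.734, 914 and 670 CPM, so that it was on in all high cells but in cells 1, 11 and 12 only of the low class. Its difference was 4.12 and was 3.34 or more with any 1 cell left out. Sgms2, a sphingomyelin synthase of bone, differed by 2.12, but by 0.69 without cell 10 and by 0.17 without the cells of low Col1a1.

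The lower members were Spp1 and Mgp. Spp1, which encodes osteopontin, was 10.3 to 584 CPM (median 56.9) in the high and 23.2 to 119788 CPM (median 325) in the low cells. The difference of -4.13 leaned on cell 11, the cell with 119788 CPM, and was -2.71 without it. Mgp, an inhibitor of mineralization, was at most 3.19 CPM in the high cells and was 357, 25.5, 61.9 and 392 CPM in cells 1, 7, 8 and 10 of the low class, with cells 11 and 12 below 1 CPM. Its difference was -3.91.

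Osteocyte genes, which mark osteoblasts that become embedded in bone, held 3 higher and 0 lower of 8 measured, against 11.6% and 5.3% of all genes. Their differences went both ways, from -1.30 to 4.12, with a median of 0.83. With log2(CPM + 10) 1 was higher, where 218 of all 7440 genes were. Phex was again the member with the largest difference. Dmp1, a matrix phosphoprotein, split both classes rather than separating them. It was above 1000 CPM in cells 3, 4, 6 and 9 of the high class and cells 1 and 11 of the low class, and at most 8.71 CPM in cells 2 and 5 and in cells 8, 10 and 12. Its difference of 2.03 was under 2, at 1.21 to 1.68, without any 1 of cells 3, 4, 6, 8, 9, 10 and 12, and 1.26 without the cells of low Col1a1, and it was 3.19 to 3.25 without any 1 of cells 1, 2 and 5. Its rho with Bglap2 was 0.15. Irx5, a homeobox factor, differed by 2.15, and by 1.15 and 1.18 without cells 10 and 11 and 1.85 to 1.97 without any 1 of cells 2, 3 and 4.

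Genes of earlier cells of the lineage were sparse. Of 20 listed, 9 were measured, 0 were higher and 1 was lower, against 11.6% and 5.3% of all genes. The differences went both ways, from -4.16 to 1.53, with a median of 0.29 against 0.35 over all genes. Lepr, the leptin receptor, a marker of stromal progenitors, was at most 0.347 CPM in the high cells. It was 76.4, 172, 10.6 and 132 CPM in cells 8, 10, 11 and 12 of the low class and at most 1.16 CPM in cells 1 and 7. Its difference was -4.16. Gli1, a hedgehog target that also marks progenitors, was 59.2, 436 and 166 CPM in cells 7, 8 and 10 of the low class against 21.2 CPM in cell 6 alone of the high class, a difference of -3.32 in too few cells for the rule.

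**Figure D4:**
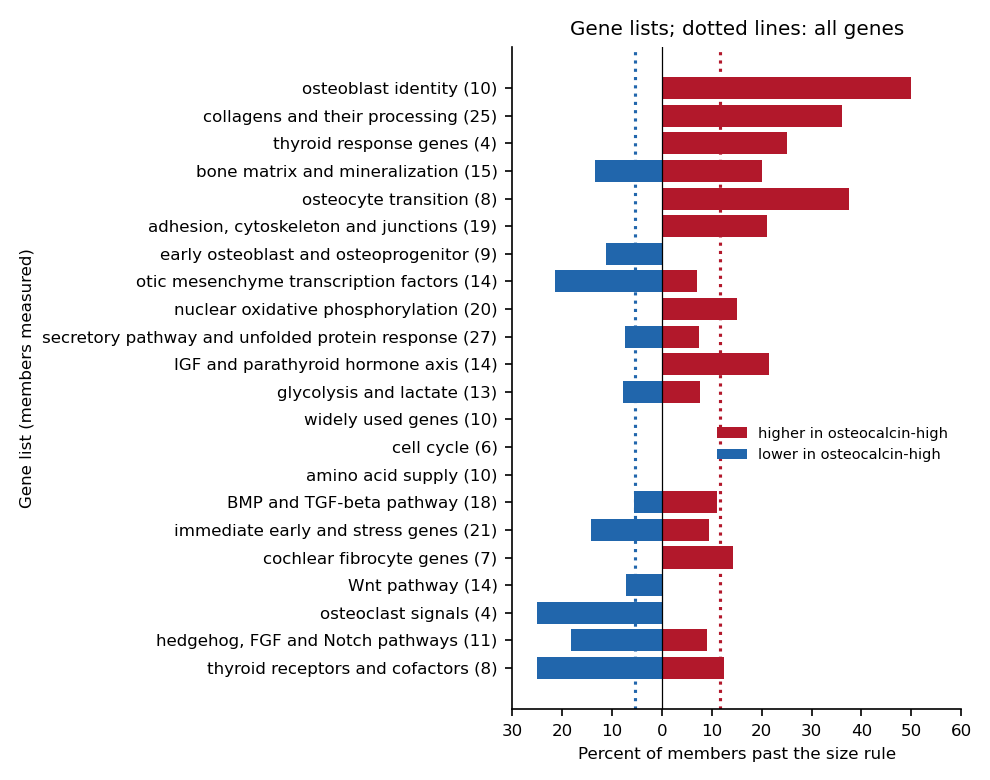
Share of the measured members that were higher (red, to the right) or lower (blue, to the left) in the osteocalcin-high cells by the size rule, with dotted lines at the shares over all genes, 11.6% and 5.3%. Shown are the lists with at least 4 measured members other than the cell type markers, and among these osteoblast identity (5 of 10), osteocyte (3 of 8) and collagen genes (9 of 25) reached furthest on the higher side.

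In the signalling lists genes passed the rule in both directions, and their counts stand beside 11.6% higher and 5.3% lower over all genes. In the BMP and TGF-beta list 2 of 18 measured genes were higher and 1 lower. The ligand gene Bmp8a was 92.3 to 893 CPM (median 305) in all high cells. In the low cells it was 95.0, 77.8 and 378 CPM in cells 7, 10 and 12 and below 1 CPM in the other 3, a difference of 4.35. Smad6, an inhibitor of BMP signalling, differed by 2.51, by 1.76 to 1.82 without any 1 of cells 1, 7 and 11, and by 5.52 without the cells of low Col1a1.

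The receptor gene Bmpr1a was 0.194 to 251 CPM (median 91.3) in the high and 215 to 418 CPM (median 285) in the low cells. The difference of -2.87 was -1.85 without cell 9, which held 0.194 CPM, and cells 2 and 6 of the high class overlapped with the low range. Id1, a target of BMP signalling, was at most 1.39 CPM in the high cells and was 102, 88.6 and 385 CPM in cells 8, 11 and 12, a difference of -3.40 that 3 cells were too few to count.

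In the Wnt list 0 of 14 measured genes were higher and 1 was lower, with a median difference of -0.81. Without the cells of low Col1a1 it was 0 higher and 6 lower of 13, where 11.8% of all genes were lower. The rule then asked for fewer low cells, so genes in too few cells to count before could count. Lef1, a transcription factor of the pathway, was 0.195 to 210 CPM (median 53.3) in the high and 1.16 to 845 CPM (median 196) in the low cells, a difference of -2.90 that was -1.14 without the cells of low Col1a1. Dkk3, of the Dickkopf family, was below 1 CPM in all high cells and 395, 88.7 and 257 CPM in cells 7, 8 and 11, a difference of -3.73 in too few cells to count, and of -7.19 without the cells of low Col1a1. Sfrp4, a secreted Wnt antagonist, differed by -2.54, also in too few cells to count, and by -1.66 to -1.84 without any 1 of cells 8, 10 and 11.

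Of 11 measured hedgehog, FGF and Notch genes 1 was higher and 2 lower. Hes1, a Notch target, was 0.684 to 746 CPM (median 79.3) in the high and 78.7 to 1045 CPM (median 415) in the low cells, a difference of -2.74 that was -1.78 without cell 6. Etv5, a factor downstream of FGF, differed by -2.64, and the FGF feedback phosphatase gene Dusp6 by -3.37 in too few cells to count. Smo, the hedgehog transducer, differed by 2.40, and by 1.83 to 1.99 without any 1 of cells 2, 5, 8 and 12.

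The list for IGF and parathyroid hormone held 3 higher and 0 lower of 14. Igf2r, a receptor that clears IGF2, was 4.10 to 374 CPM (median 95.9) in the high cells and reached 165 CPM in cell 8 of the low class. Its difference was 4.39, or 2.79 without the cells of low Col1a1. Nr4a2, a nuclear receptor induced by parathyroid hormone, differed by 2.65. The phosphodiesterase gene Pde4d differed by 2.48, and by 1.93 to 1.99 without any 1 of cells 1, 3 and 12. Tnfrsf11b, which encodes osteoprotegerin, the decoy receptor that limits osteoclast formation, was lower by the rule in the high cells, with 1.20 to 318 CPM (median 100.3) against 0.245 to 2827 CPM (median 474). Its difference of -2.48 was -1.60 to -1.85 without any 1 of cells 1, 2, 3, 6 and 7, -3.83 without cell 10 and -4.16 without the cells of low Col1a1.

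Of 14 measured transcription factors of the otic mesenchyme 1 was higher and 3 lower, with a median difference of 0.28. Eya4, a coactivator in which mutations cause hearing loss, was 183 to 675 CPM (median 375) in all high cells. In the low cells it was 721 CPM in cell 11 and 19.4 CPM in cell 1 and below 1 CPM in the other 4, a difference of 5.93. Tbx18 (-2.19), Nfia (-2.12) and Foxc2 (-2.12) passed the rule narrowly. Tbx18, a T-box factor, was at -1.62 to -1.86 without any 1 of cells 1, 2, 4, 5, 8, 9 and 10 and at -3.30 without cell 3. Nfia was at -1.46 to -1.82 without any 1 of cells 2, 5, 6, 8 and 12, and the forkhead factor Foxc2 at -1.34 to -1.96 without any 1 of cells 1, 2, 5, 7, 9 and 12. Sox9, a factor of chondrocytes and progenitors, was 0.583 to 13.8 CPM in the high cells and 157, 169 and 885 CPM in cells 10, 11 and 12, a difference of -3.20 in too few cells to count.

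Adhesion and junction genes held 4 higher and 0 lower of 19, but 1 and 1 of 18 without the cells of low Col1a1. Cdh2, which encodes N-cadherin, was 91.0 to 549 CPM (median 237) in all high cells and 324 and 955 CPM in cells 7 and 11 of the low class, with at most 9.59 CPM in the other 4. The difference of 4.10 was 1.77 without the cells of low Col1a1. Gja1, the main gap junction gene of bone, was above 1000 CPM in cells 2, 4, 5 and 6 of the high class and cells 7 and 11 of the low class, and its difference of 3.09 was 0.61 without the cells of low Col1a1. Tpm1, a tropomyosin, likewise went from 3.24 to 1.16.

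**Figure D5:**
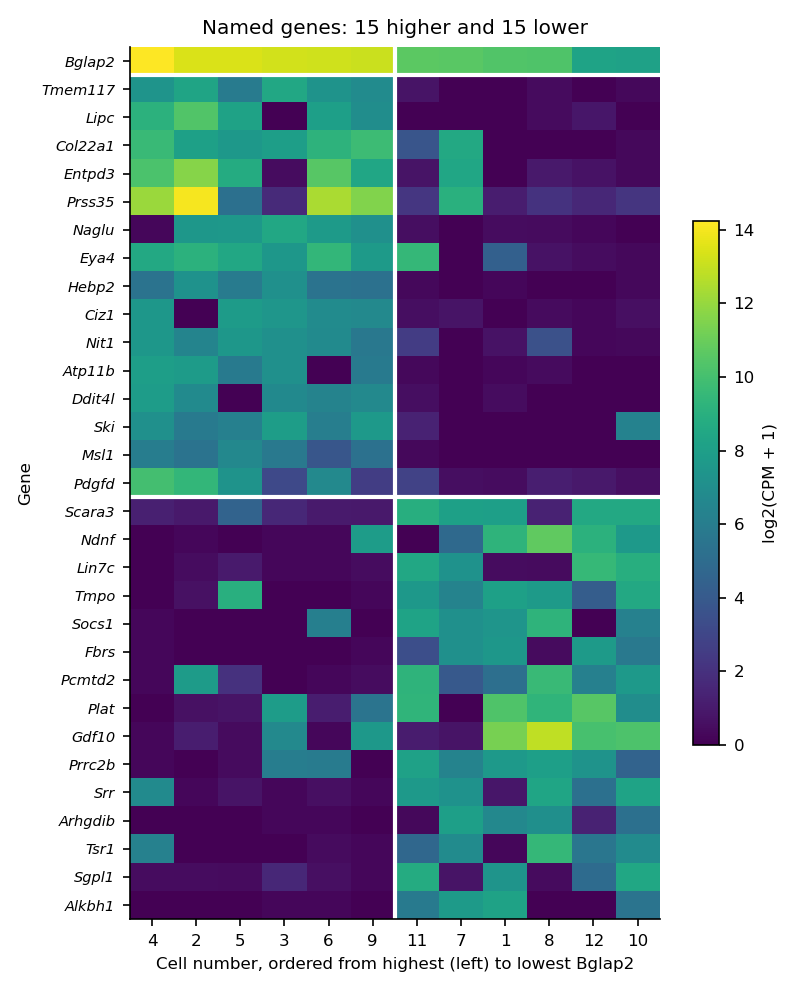
Heat map of log2(CPM + 1) in the 12 osteoblasts, ordered by Bglap2 from left to right, for Bglap2 (top row, which chose the classes) and the 15 genes with the largest difference in each direction. White lines divide the classes and the blocks of genes, and most genes have at least 1 cell that does not follow its class.

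Across all genes the largest difference was that of Tmem117, a membrane protein. It was 316, 372, 162, 60.7, 156 and 116 CPM in the high cells and at most 0.694 CPM in the low cells, and above 10 CPM in 5 of the 34 other cells. The difference was 7.14, and 6.91 to 7.43 with any 1 cell left out. It was 1 of 7 genes (0.0941% of those measured) that were higher by the rule with no overlap of the classes, and 2 genes (0.0269%) were lower in that way. The other higher ones were Hebp2, a heme-binding protein (5.93, 39.3 to 151 CPM in the high and at most 0.245 CPM in the low cells), Nit1, an amidase (5.63), Msl1, of a histone acetyltransferase complex (5.43), Dock1, a Rac activator (5.14), Spr, sepiapterin reductase (5.11), and 2810403A07Rik (5.47). In 3 of them, Dock1, Spr and 2810403A07Rik, 1 high cell was under 10 CPM. For 2810403A07Rik the lowest high cell was cell 5 (0.694 CPM) and the highest low cell was cell 11 (0.462 CPM). For Spr these were cell 4 (0.404 CPM) and cell 10 (0.245 CPM). All of these values were under what 3 reads are worth in the cell, so the lack of overlap of both genes rests on fewer than 3 reads.

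The lower genes with no overlap were Fbrs and Arhgdib. Fbrs, a polycomb-associated protein, was at most 0.202 CPM in the high cells and 0.322 to 212 CPM (median 96.8) in the low cells, a difference of -5.25. Arhgdib, an inhibitor of small GTPases, was at most 0.199 CPM and 0.231 to 256 CPM (median 68.7), a difference of -4.70. For both, the lowest low cell and the highest high cell held 1 read each, so the order of those cells was set by the depth of their libraries.

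Others of the 15 genes with the largest positive differences were on in all or all but 1 of the high cells. Lipc, hepatic lipase (6.91), was 0 to 1316 CPM (median 275) in the high and at most 0.799 CPM in the low cells. Prss35, a serine protease (6.45), was 16795, 2.19, 4356, 36.4, 5511 and 2971 CPM in the high cells and 530 CPM in cell 7 of the low class, with at most 3.70 CPM in the other 5. Entpd3, an ectonucleotidase (6.48), followed the same cells, with 0.399 CPM in cell 3 and 342 CPM in cell 7. Pdgfd, a growth factor (5.42), was 5.06 to 1027 CPM (median 130.4) against 0.396 to 6.01 CPM.

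The rest of the 15 were Naglu, a lysosomal enzyme (6.18), Ciz1, a DNA replication factor (5.64), Atp11b, a lipid flippase (5.59), Ddit4l, an inhibitor of mTOR (5.57), and Ski, a repressor of TGF-beta signalling (5.52). Naglu, Ciz1, Atp11b and Ddit4l were each near 0 in 1 high cell, a different one each time, and at most 0.697 CPM in the low cells.

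The 15 genes with the largest negative differences included Scara3, Ndnf, Gdf10, Plat and Socs1. Scara3, a scavenger receptor (-5.53), was 0.972 to 21.9 CPM (median 1.22) in the high and 1.61 to 478 CPM (median 322) in the low cells. Ndnf, a secreted neurotrophic protein (-5.52), was 235 CPM in cell 9 and at most 0.199 CPM in the other high cells, and 617, 28.1, 1757, 208, 0 and 565 CPM in the low cells. Its difference was -3.54 without the cells of low Col1a1. Gdf10, a TGF-beta family ligand (-5.01), was 102 and 193 CPM in cells 3 and 9 of the high class and 2528, 7395, 1220 and 1105 CPM in cells 1, 8, 10 and 12 of the low class. Its difference was -2.98 without the cells of low Col1a1.

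Plat, tissue plasminogen activator (-5.09), was 229 and 43.8 CPM in the same cells 3 and 9 and at most 1.20 CPM in the other high cells, against 1288, 0, 637, 125, 623 and 1492 CPM in the low cells. Thus Dio2, Gdf10 and Plat had values above 10 CPM in cells 3 and 9 and in no other cell of the high class. Socs1, a feedback inhibitor of cytokine signalling (-5.33), was 69.0 CPM in cell 6 and 0.202 CPM or less in the other high cells, and 0 to 619 CPM (median 154) in the low cells. The others were Lin7c (-5.44), Tmpo (-5.44), Pcmtd2 (-5.17), Prrc2b (-4.90), Srr (-4.78), Tsr1 (-4.49), Sgpl1 (-4.48, and -2.86 without the cells of low Col1a1) and Alkbh1 (-4.46).

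Secretory pathway genes, the machinery for matrix export, were even: 2 of 27 were higher and 2 lower, with a median difference of 0.12. Kdelr2, a retrieval receptor of the endoplasmic reticulum, differed by 3.31 (1.60 without the cells of low Col1a1), and Edem1, of misfolded protein disposal, by 2.04. That difference was 1.41 to 1.91 without any 1 of cells 1, 2, 5, 6, 8, 9, 11 and 12, 3.28 without cell 10 and 3.88 without the cells of low Col1a1. The stress factor gene Ddit3 was 0.399 to 135 CPM (median 1.33) in the high and 0.990 to 142 CPM (median 90.4) in the low cells, a difference of -3.07. The chaperone gene Dnajb9 differed by -2.89 (-1.99 without the cells of low Col1a1). Amino acid supply (10 genes), the cell cycle (6) and widely used genes (10) held 0 genes past the rule in either direction.

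Energy genes gave single members. Of 20 nuclear genes of oxidative phosphorylation 3 were higher, among them Uqcrc2 (2.42, 1.69 and 1.76 without cells 10 and 12, and 0.11 without the cells of low Col1a1) and Atp5a1 (2.10, and 1.01 to 1.97 without any 1 of cells 4, 5, 8, 9 and 12). In glycolysis Pkm, pyruvate kinase, differed by 2.99 (1.02 without the cells of low Col1a1) and the hypoxia target Vegfa by -2.15. The latter was -1.49 to -1.94 without any 1 of cells 2, 3, 5, 7, 8, 11 and 12, and -3.72 without the cells of low Col1a1. Immediate early and stress genes, which respond to handling as well as to signals, held 2 higher and 3 lower of 21. Myc was 0.798 to 1055 CPM (median 159) in the high and 0 to 151 CPM (median 0.221) in the low cells, a difference of 4.28. Klf6 differed by 2.52, by 1.71 to 1.99 without any 1 of cells 3, 8, 10 and 12, and by 0.99 without the cells of low Col1a1. Ctgf differed by -3.03 (-1.27 without those cells). Btg2 differed by -2.13 (-1.42 without them), by -1.53 to -1.79 without any 1 of cells 3, 4, 5, 8, 9, 10 and 12, and by -3.22 without cell 6. Fos was 5.20 to 4364 CPM (median 195) and 4.75 to 7029 CPM (median 2169), a difference of -2.83 that was -1.97 without cell 5 and -4.28 without cell 1.

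Markers of other cell types were found in both classes. Of 10 chondrocyte markers, Col2a1 was abundant, at 4279 to 11090 CPM in the high cells and 14.4 to 13551 CPM in the low cells, where cells 7 and 8 were the lowest. It passed the rule, with a difference of 2.90 that was 1.68 and 1.86 without cells 7 and 8 and 5.90 without the cells of low Col1a1. Col9a1 was at 10 CPM or more in 6 of the 12 cells, up to 429 CPM in the high and 816 CPM in the low class. Lect1 was so in 3 cells (highest 84.0 CPM) and Col9a3 in 2 (highest 187 CPM). The chondrocyte matrix gene Acan was at 0 in 9 of the 12 cells but reached 171 CPM in cell 10. Sox6 (194 CPM, cell 8), Comp (154 CPM, cell 9) and Sox5 (45.1 CPM, cell 9) reached 10 CPM in 1 cell each. Matn1 and Col10a1 were at 0 in all 12. The summed chondrocyte list was 4293 to 11149 CPM in the high and 29.5 to 13984 CPM in the low cells. Of 7 general fibroblast markers 3 were measured and 2 were higher: Pdgfra (16.4 to 310 CPM against 0.594 to 77.2 CPM, a difference of 3.80) and Dcn (2.87, or 0.76 without the cells of low Col1a1). Lum, the other measured marker, differed by -0.18 and was at 10 CPM or more in 6 of the 12 cells, up to 2778 CPM. Dpt and Clec3b were at 0 in all 12 cells, and the summed list was 486 to 6726 CPM and 11.7 to 3422 CPM. The part of these markers in the differences above was not tested.

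Other lists showed no class difference past the rule. The summed Schwann cell list reached 3701 CPM, mostly from Mbp, a gene also made outside glia, while Sox10 was at 0 in all 12 cells. The summed osteoclast list was at most 264 CPM in the high and 418 CPM in the low cells, nearly all from Ctsk, and Mmp9, Ocstamp, Calcr and Atp6v0d2 were at 0 in all 12. Pericyte genes summed to 0.513 to 675 CPM and 18.1 to 639 CPM, and macrophage genes to 5.47 to 111 CPM and 6.50 to 164 CPM. Endothelial genes were at most 116 CPM, red blood cell genes 23.7 CPM and otic epithelium genes 44.9 CPM in sum, and neuron genes were under 1 CPM but for 417 CPM of Syt1 in cell 12.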

How the data were processed

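Per the labels, full-length cDNA of 46 hand-picked cells was made with SMART-Seq v4 and libraries with ThruPLEX, without molecular identifiers. The authors deposited CPM values for 29871 genes. The submitters' processing notes name STAR 2.7.3a, bcl2fastq 2 and the build GRCm38 (mm10). The counting program, annotation and strand setting were not given in the sources used here. Of the values above 0, 100% were whole reads within 0.01 read, and libraries held 2522853 to 10350249 reads in listed genes. No count test could be run on these reads, because 1 unreplicated sample leaves nothing to test. A floor of 3 reads covers counting error only.

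Cells were split by the Ibsp and Bglap2 cut values. Differences are of mean log2(CPM + 1), a scale that understates low genes, and SDs are over cells. The rule for named genes took, in each direction, the 15 of largest difference (Gm, Rik, LOC, date-like, mitochondrial and ribosomal protein symbols not ranked), thyroid genes, Dio2, Coch, Alpl and Sp7, and up to 6 per list. Fewer were named from some lists, and some genes are not reported here. Runx2, Dlx5, genes outside the rule that did not pass the filter, and the separated genes with lower ranks were chosen after their values were seen. The members and lists were chosen with earlier results of these data known. Of 514 list entries, 513 had a row; 25 symbols had become dates, and March6 was matched by identifier. The script was tested on simulated data with large planted differences and less spread between cells than here. That checks the code, and not how the rule behaves on these cells. Alternatives were pseudocounts, filters, scalings, medians, cut values, thinning and leaving out cells; centring and leaving out low-Col1a1 cells were added after seeing the data, as were the motifs ACCACA and TGACGTCA. Promoters are from RefSeq and matched 131 of 196 named genes. Python 3.11.15, pandas 2.3.3, NumPy 2.4.6 and SciPy 1.17.1 were used.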

Additional observations from a re-analysis of the deposited data

Results flagged for a closer look

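Of 220 values checked for a cell far from the other 5 of its class, 50 (22.7%) had one by Dixon's criterion, where chance gives about 1 in 20. Sparse genes of single cells are on or off, and such values are given here without explanation.

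In the osteocalcin-high class cell 5 had the fewest reads in listed genes (2522853) and the highest share of ribosomal protein genes (1.39%). Cell 5 also stood apart for Dusp6 (8.33 CPM), Klf9 (0.694 CPM), Dbp (0 CPM), Klf6 (1.39 CPM), Ddit4l (0 CPM), Scara3 (21.9 CPM) and Tmpo (496 CPM). Cell 3 stood apart for Col1a1 (5.58 CPM), Smad6 (0 CPM), Sox9 (13.8 CPM), Lipc (0 CPM), Entpd3 (0.399 CPM) and Sgpl1 (1.99 CPM). Cell 9 did so for Sfrp4 (105 CPM), Slco1c1 (539 CPM) and Ndnf (235 CPM), and cell 6 for Gli1 (21.2 CPM), Atp11b (0 CPM) and Socs1 (69.0 CPM). Cell 4 was apart for Rxra (19.4 CPM), Naglu (0.202 CPM), Srr (112 CPM), Tsr1 (75.8 CPM) and Spr (0.404 CPM), and cell 2 for Ciz1 (0 CPM), Pcmtd2 (227 CPM) and Runx2 (0.195 CPM).

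In the osteocalcin-low class cell 1 stood apart for Sp7 (0.594 CPM), Runx2 (0 CPM), Ddit3 (0.990 CPM) and Fos (4.75 CPM). Cell 11 did so for Tmem119 (1.85 CPM), Col13a1 (476 CPM), Lef1 (1.16 CPM), Msl1 (0.231 CPM) and Pdgfd (6.01 CPM). Cell 7 was apart for P4ha2 (131 CPM), Nr4a2 (210.0 CPM), Entpd3 (342 CPM), Prss35 (530 CPM) and Plat (0 CPM). Cell 8 was apart for Dnajb9 (0.322 CPM), Igf2r (165 CPM), Scara3 (1.61 CPM) and Dock1 (1.61 CPM), cell 10 for Sgms2 (0.734 CPM) and Ski (77.3 CPM), and cell 12 for Socs1 (0 CPM).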

How the results depend on the processing

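Because the 12 cells are 1 sample, these checks show how counts move and not how certain they are. The counts of 863 higher and 394 lower genes became 218 and 107 with log2(CPM + 10). Lower genes were 675 for the 4 highest against the 4 lowest cells by Bglap2. Without the cells of low Col1a1 they were 725. In both of these settings the rule asked for fewer low cells. Higher genes stayed within 1.5 times under the other settings, at 647 (without cell 9) to 1273 (difference of medians), and were 672 when centred on the median of all genes. With 1 cell left out, higher genes were 647 to 983 and lower genes 276 to 463. The 7 higher and 2 lower genes without overlap were 4 and 1 with Ibsp at 100 CPM or more (6 high and 7 low cells), 79 and 62 for 4 against 4 cells, and 128 and 68 without the cells of low Col1a1. After thinning to 2522853 reads the lower count was 1. With 1 cell left out they were 11 to 22 and 1 to 10, as fewer cells overlap less. Where a setting gave more or fewer genes otherwise, the cause was not tested.

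Of 87 named genes past the rule, 62 kept a difference of at least 2 with each cell left out in turn, 67 without the cells of low Col1a1, and 80 after centring. Of 2675 gene values under 25 settings, 2644 moved by less than 1 SD over cells. That measure is wide, as the median SD over all genes was 2.79 (high) and 3.02 (low), above the 2 of the rule. A gene could thus lose its call and still count as unmoved, so this share does not show that the differences are stable. Of the genes past the rule 1 changed sign: Smad6 was -0.11 for 4 against 4 cells. Of the other named genes 6 changed sign under some setting (Coch, Dlx5, Klf9, Runx2, Slco1c1 and Tmem119). No paired analysis was possible because the cells carry no pairing. Depth limits single cells at 0.513 to 1.04 CPM.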

Other observations

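The 34 reporter cells outside the osteoblast set give a background for the genes described above. Entpd3, Panx3 and Col22a1 were below 10 CPM in all 34, and Bmp8a was above it in 1 and Tmem117 in 5. Car3 was at 10 CPM or more in all 34, with a median of 3834 CPM, which lies between the class medians of the high (8995 CPM) and the low osteoblasts (400 CPM). Slco1c1 had a median of 1133 CPM in the 34 cells, where 9 of the 12 osteoblasts held at most 7.86 CPM. Coch had a median of 7629 CPM there, between the medians of the high (5924 CPM) and low osteoblasts (12730 CPM). No test was made between these cells.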
